A study of Malus domestica with 6 samples.

Results

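A set of 9 gene models of apple (Malus domestica), most of them for enzymes that build or oxidise the phenolic units of cell walls, is described here across 6 varieties. They are 4 laccase genes, 1 peroxidase gene, 2 cinnamyl alcohol dehydrogenase genes and 2 cupredoxin genes, chosen by identifier among the 1261 gene models of the deposited table. The choice was made with their difference between russeted and waxy fruit known, so that difference is given as a description, with no test. The outer skin (exocarp) of the fruit was profiled by RNA sequencing in 3 fully russeted varieties, St Edmund Pippin, Reinette Parmentier and Patte de Loup, and in 3 fully waxy varieties, AG94, AF42 and Gala. All 6 were sampled in October 2012 in 1 Belgian orchard collection, with no treatment named in the labels. Each variety gave 1 library, so a phenotype mean has n = 3 varieties and no variety has a replicate of its own. With this design skin type and all else that sets the 3 varieties of each kind apart cannot be told apart. How many fruits or trees a library holds is not given in the sources used here.

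Lignin and the aromatic part of suberin, the polymer of cork walls, are made in steps. Phenylalanine is converted to cinnamic acids, these are reduced to aldehydes and then to monolignols, and the last reduction is done by cinnamyl alcohol dehydrogenases (CAD). Outside the cell, laccases use oxygen and class III peroxidases use hydrogen peroxide to turn such phenolics into radicals that couple into polymer. Cupredoxins are small blue copper proteins that carry electrons, and laccases are themselves built from domains of that fold.

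The table held genes that the authors had selected on these libraries for a difference between the phenotypes. Mapped reads, recovered from the deposited values, ran from 11.3 M to 19.1 M in the russeted libraries and from 9.44 M to 16.8 M in the waxy ones. Of 8 cork markers all were higher in russeted exocarp past an adjusted p of 0.05 in the edgeR fit described next, with summed levels of 115 to 578 RPKM in russeted and 17.5 to 64.9 RPKM in waxy varieties. Of 9 cuticle markers 8 were lower, with sums of 93.8 to 367 RPKM in russeted and 1380 to 2480 RPKM in waxy varieties. By the same rule 19.2% of all 1246 tested genes were higher and 9.31% lower. The markers came into the table through the authors' selection too, so these counts are no independent evidence of cell types. No marker stood at 0 in any library, the lowest having 3 reads. In bulk tissue, fewer cells of a type and less RNA per cell cannot be told apart.

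All 7 genes of oxidative coupling and copper proteins were higher in each russeted variety than in any waxy one, and both CAD genes were lower. RPKM, the reads of a gene scaled to its coding length and to the mapped reads of the library, is the unit of every level here. With edgeR's quasi-likelihood fit across the table, 7 members had a higher and 2 a lower level at an adjusted p under 0.05. Among all 1246 genes tested, 19.2% were higher and 9.31% lower by the same rule, which is 239 and 116 genes, against 44 and 296 with TMM factors. The phenotypes did not overlap in 7 members that were higher and 2 that were lower, and the same held for 63.1% (higher) and 24.3% (lower) of all 1261 listed genes. The members were chosen on this contrast, so nothing is read from these counts. All 9 passed the filter on low counts. With TMM factors, which scale on the listed genes themselves, 4 members were called higher and 2 lower, and LAC14 MDP0000211955 and both LAC15 genes lost their call. Without St Edmund Pippin, CAD9 and LAC15 MDP0000655646 were not called. CAD4 was not called without Reinette Parmentier, Patte de Loup or AG94, and LAC15 MDP0000202801 not without Patte de Loup, AG94 or AF42. The authors' deposited table gives a false discovery rate under 0.05 for 3 members, all laccases, and 0.188, the highest of the 9, for CAD4.

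**Figure D1:**
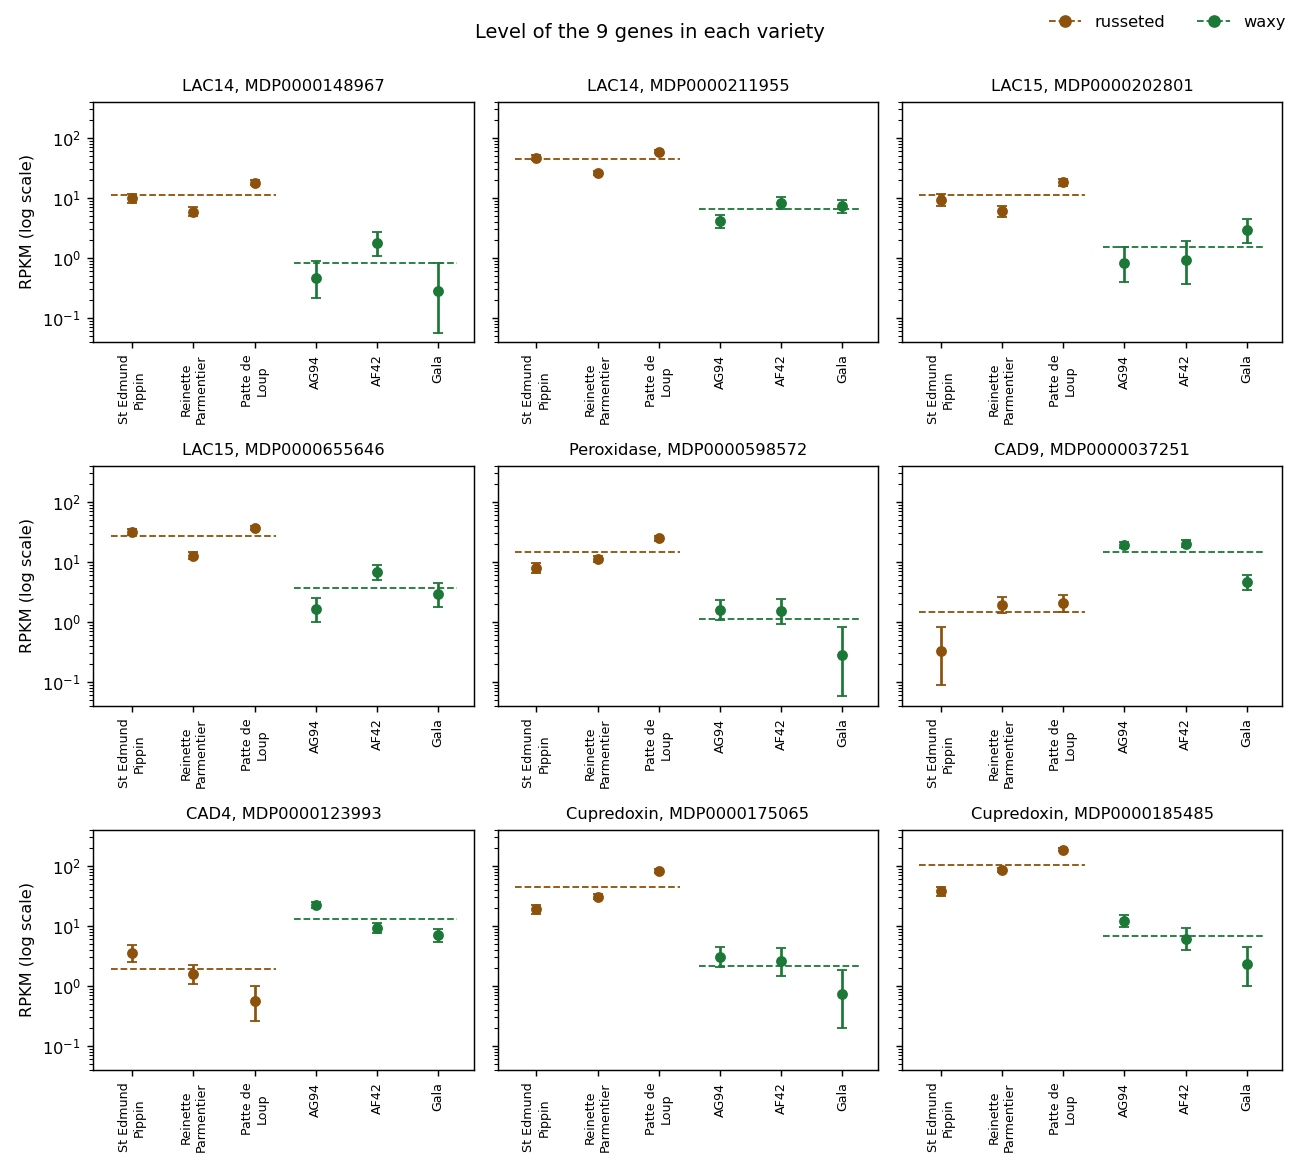
Level of each of the 9 genes (RPKM, log scale) in the 3 russeted and 3 waxy varieties. Points are libraries, bars are exact 95% Poisson intervals that cover counting error only, and dashed lines are phenotype means. Russeted points stand above waxy ones in 7 panels and below them in the CAD9 and CAD4 panels.

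The most abundant laccase gene was LAC14 MDP0000211955, matched to Arabidopsis laccase 14. It had 47.2 RPKM in St Edmund Pippin, 26.1 in Reinette Parmentier and 59.3 in Patte de Loup, against 4.13 in AG94, 8.20 in AF42 and 7.22 in Gala. Its lowest russeted variety thus was at 3.18-fold the level of the highest waxy one. The means were 44.2 ± 16.8 RPKM in russeted exocarp and 6.52 ± 2.12 RPKM in waxy exocarp (SD, n = 3 each), a 6.78-fold difference and a fitted log2 fold change of 2.77 ± 0.53 (SE).

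A second LAC14 gene, MDP0000148967, was less abundant and had the larger fold. Its levels were 9.84 RPKM in St Edmund Pippin, 5.94 in Reinette Parmentier and 18.1 in Patte de Loup, against 0.47 in AG94, 1.74 in AF42 and 0.28 in Gala. Its waxy values rest on 9, 21 and 3 reads, so the 13.6-fold ratio of the means has a wide counting error in its denominator. AF42 was the highest of the 3 waxy varieties, and without it the log2 fold change of 3.77 ± 0.73 (SE) became 4.85.

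The LAC15 genes match Arabidopsis laccase 15, also called TT10, which oxidises flavonoids in the seed coat of that species. MDP0000655646 had 31.5 RPKM in St Edmund Pippin, 12.8 in Reinette Parmentier and 36.7 in Patte de Loup, against 1.63 in AG94, 6.70 in AF42 and 2.90 in Gala. MDP0000202801 had 9.24, 6.00 and 18.4 RPKM in the same russeted varieties, against 0.82, 0.92 and 2.92 RPKM in AG94, AF42 and Gala. The gap between the phenotypes was narrow in both, since the lowest russeted value, in Reinette Parmentier, was 1.91-fold and 2.05-fold the highest waxy one. Means were 27.0 ± 12.6 and 3.74 ± 2.64 RPKM for MDP0000655646 in russeted and waxy exocarp, and 11.2 ± 6.41 and 1.55 ± 1.18 RPKM for MDP0000202801 (SD, n = 3 each). Both pairs of means differed 7.21-fold.

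All 4 laccase models were partial by their deposited domain annotation. A plant laccase has an N-terminal, a middle and a C-terminal copper oxidase domain. The LAC14 members were annotated with the middle and C-terminal ones, over 1149 and 954 coding bases. LAC15 MDP0000655646 had the N-terminal and middle ones over 768 bases, and MDP0000202801 the N-terminal one alone over 726 bases. Another LAC14 model in the table that is not among the 9, MDP0000302838, had only the N-terminal domain over 540 bases. Whether any of these models are pieces of 1 gene was not tested.

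The laccase genes also shared many of their reads with other genes. Over the 6 libraries 40.1% and 42.3% of the reads of LAC14 MDP0000148967 and MDP0000211955 were placed at that gene alone, as were 48.1% and 60.0% of those of LAC15 MDP0000655646 and MDP0000202801. The other 5 members had 98% to 100% unique reads, and the median of all listed genes was 93.6%. Unique reads gave much the same folds between the phenotypes. LAC14 MDP0000211955 differed 6.77-fold by unique reads and LAC15 MDP0000655646 6.85-fold.

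Within the russeted group, however, the unique share of LAC14 MDP0000211955 differed between libraries. It was 58.2% in St Edmund Pippin (Wilson 95% interval 53.9% to 62.4%), 39.2% in Reinette Parmentier (34.9% to 43.7%) and 35.1% in Patte de Loup (32.1% to 38.1%). The St Edmund Pippin interval lay apart from the other two. LAC15 MDP0000655646 had 53.3% unique reads in St Edmund Pippin (47.4% to 59.1%) and 37.4% in Reinette Parmentier (30.8% to 44.6%), again without overlap, and 48.8% in Patte de Loup (44.3% to 53.2%). In the waxy libraries, with 3 to 82 reads a gene, the intervals of the varieties overlapped in all 4 genes. These intervals cover counting error only.

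**Figure D2:**
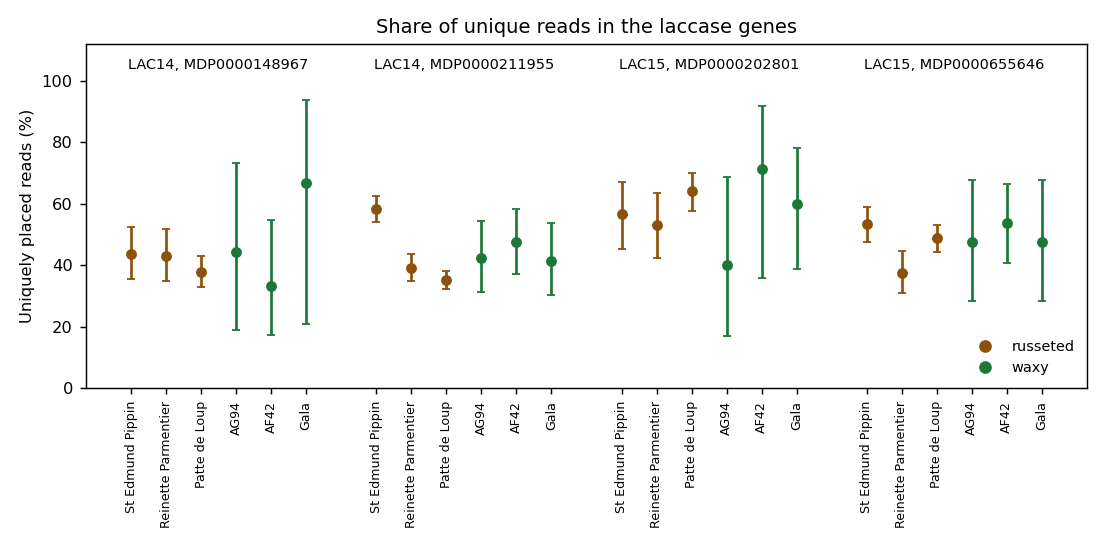
Share of reads placed at 1 gene only (percent) in each laccase gene and variety, with Wilson 95% intervals. For LAC14 MDP0000211955 the St Edmund Pippin point, at 58.2%, stands above those of Reinette Parmentier, at 39.2%, and Patte de Loup, at 35.1%.

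The gene MDP0000598572 is a peroxidase by its annotated domain and by its match to AT4G33420 of Arabidopsis. Whether it is of class III was not tested. The gene had 7.95 RPKM in St Edmund Pippin, 11.2 in Reinette Parmentier and 24.7 in Patte de Loup. It had 1.60 RPKM in AG94, 1.53 in AF42 and 0.28, from 3 reads, in Gala. The lowest russeted value was 4.97-fold the highest waxy one, and the means were 14.6 ± 8.87 and 1.14 ± 0.743 RPKM in russeted and waxy exocarp (SD, n = 3 each; log2 fold change 3.65 ± 0.69, SE).

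The cupredoxin genes, both matched to AT5G07475, had the largest folds of the 9 members over all 6 libraries, with mapped reads as library size and no replicate block. MDP0000185485 and LAC14 MDP0000148967 (log2 fold change 3.77 ± 0.73) lay within their SE of each other. MDP0000185485 had 37.5 RPKM in St Edmund Pippin, 86.4 in Reinette Parmentier and 185 in Patte de Loup, against 12.2 in AG94, 6.15 in AF42 and 2.28 in Gala. MDP0000175065 had 19.0, 30.9 and 82.6 RPKM in the russeted varieties in that order, against 3.06, 2.61 and 0.72 RPKM in the waxy ones. In both genes every russeted variety stood above every waxy one, by at least 3.08-fold in the first and 6.22-fold in the second. The russeted mean of MDP0000185485 was the highest of all members. The means of MDP0000175065, 44.2 ± 33.8 RPKM in russeted exocarp and 2.13 ± 1.24 RPKM in waxy exocarp, differed 20.7-fold (SD, n = 3 each; log2 fold change 4.33 ± 0.70, SE). Those of MDP0000185485 were 103 ± 75.3 and 6.87 ± 4.99 RPKM, a 15.0-fold difference (log2 fold change 3.88 ± 0.70). Without Patte de Loup the log2 fold changes were 3.51 for MDP0000175065 and 3.14 for MDP0000185485, and without AG94 they were 4.70 and 4.60. Without Patte de Loup CAD9 (-3.64) was further from 0 than both, and LAC14 MDP0000148967 (3.25) passed MDP0000185485. Leaving out Gala put CAD9 (-3.74) further from 0 than MDP0000185485 (3.48). Leaving out Reinette Parmentier put LAC14 MDP0000148967 (4.08) above MDP0000185485 (3.99). Without AF42, LAC14 MDP0000148967 (4.85) passed both cupredoxins (4.47 and 3.79). With the replicate number as a block, it stood at 3.90, between MDP0000175065 (4.09) and MDP0000185485 (3.80). With TMM factors CAD9 (-4.26) and CAD4 (-3.79) were further from 0 than both cupredoxins (3.33 and 2.88). Every read of both cupredoxins was placed at that gene alone in all 6 libraries. Their annotated domain, like plastocyanin, spans short models of 585 and 372 coding bases.

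The CAD genes went the other way. CAD9 (MDP0000037251) had 0.33 RPKM in St Edmund Pippin, 1.94 in Reinette Parmentier and 2.04 in Patte de Loup, against 19.2 in AG94, 20.2 in AF42 and 4.6 in Gala. CAD4 (MDP0000123993), matched to a CAD that acts in lignin synthesis of Arabidopsis stems, had 3.50, 1.59 and 0.55 RPKM in the same russeted varieties, against 22.3, 9.36 and 7.0 RPKM in AG94, AF42 and Gala. The nearest values of the phenotypes were 2.25-fold apart in CAD9, between Gala and Patte de Loup, and 2.0-fold apart in CAD4, between Gala and St Edmund Pippin. The means were 1.44 ± 0.960 and 14.6 ± 8.71 RPKM for CAD9 and 1.88 ± 1.5 and 12.9 ± 8.25 RPKM for CAD4 in russeted and waxy exocarp (SD, n = 3 each). The log2 fold changes were -3.32 ± 0.72 and -2.80 ± 0.70 (SE).

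The CAD genes took opposite orders among the russeted varieties. In St Edmund Pippin CAD4 was 10.6-fold the level of CAD9, which had 4 reads there. In Reinette Parmentier it was 0.820-fold and in Patte de Loup, with 10 reads of CAD4, 0.270-fold. Their sum varied less than either gene, at 3.83, 3.53 and 2.59 RPKM in St Edmund Pippin, Reinette Parmentier and Patte de Loup. Between Patte de Loup and St Edmund Pippin CAD9 differed 6.26-fold (exact 95% interval of the counts 2.25 to 24.2) and CAD4 0.157-fold (0.0702 to 0.318). CAD9 did not separate Patte de Loup from Reinette Parmentier, at 1.05-fold (0.658 to 1.68), so its order rests on St Edmund Pippin. In the waxy varieties the sum was 41.5 RPKM in AG94, 29.5 in AF42 and 11.6 in Gala.

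Coupling and synthesis were set against each other within each library, where the ratio does not depend on the library size used. The summed level of the 4 laccases and the peroxidase was 106 RPKM in St Edmund Pippin, 62.0 in Reinette Parmentier and 157 in Patte de Loup, against 8.65 in AG94, 19.1 in AF42 and 13.6 in Gala. Divided by the summed level of CAD9 and CAD4, this gave 27.6, 17.6 and 60.7 in the russeted varieties, against 0.208, 0.647 and 1.17 in the waxy ones. On the log2 scale the ratios were 4.79 (4.36 to 5.21, 95% counting interval), 4.14 (3.79 to 4.48) and 5.92 (5.51 to 6.33) in russeted varieties. They were -2.26 (-2.53 to -2.0), -0.63 (-0.89 to -0.37) and 0.23 (-0.15 to 0.60) in AG94, AF42 and Gala. The phenotypes were at least 3.91 apart on this scale, and their means, 4.95 ± 0.90 and -0.89 ± 1.27 (SD, n = 3 each), differed by 5.84. By unique reads every log2 ratio was lower, at 4.0, 3.22 and 4.97 in St Edmund Pippin, Reinette Parmentier and Patte de Loup. It was -3.14, -1.52 and -0.76 in AG94, AF42 and Gala, so the sign in Gala turned with the reads counted. Since its parts were chosen for opposite differences, the ratio has no test. It covers these models only, so other laccase, peroxidase or CAD genes of apple are in neither sum.

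**Figure D3:**
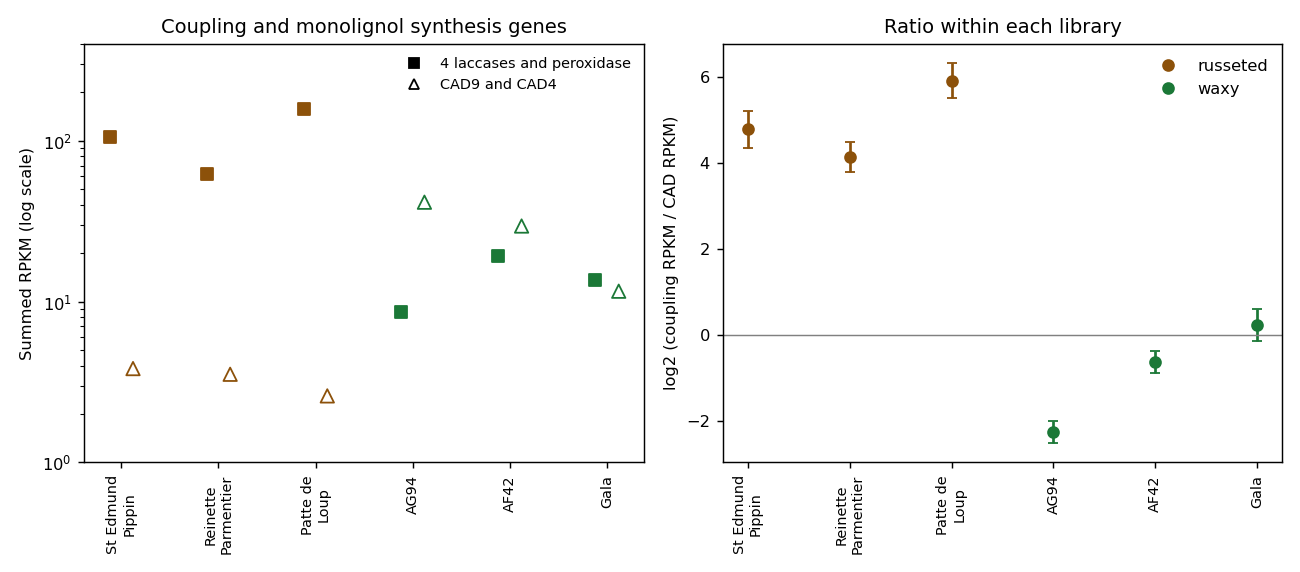
Left, summed RPKM of the 4 laccases and the peroxidase (squares) and of CAD9 and CAD4 (triangles) on a log scale. Right, the log2 ratio of both sums in each library with its 95% counting interval. The 3 russeted ratios lie between 4.14 and 5.92 and the 3 waxy ones between -2.26 and 0.23.

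How the ratio came about differed from variety to variety. Among waxy varieties it was lowest in AG94, which had both the lowest coupling sum and the highest CAD sum, and highest in Gala, whose CAD sum was the lowest. Patte de Loup was at the far end, with the highest coupling and the lowest CAD sum of all 6. Laccases made up 81.9% to 92.5% of the coupling sum in russeted and 81.5% to 97.9% in waxy varieties, so the ratio follows the laccases more than the peroxidase. With the peroxidase alone over the CAD sum, the log2 ratios were 1.05, 1.67 and 3.25 in St Edmund Pippin, Reinette Parmentier and Patte de Loup, against -4.70, -4.27 and -5.37 in AG94, AF42 and Gala. The order of varieties changed, with Reinette Parmentier above St Edmund Pippin and Gala lowest. It changed with the denominator too. Over CAD9 alone the log2 ratio was 8.32 in St Edmund Pippin, 5.00 in Reinette Parmentier and 6.27 in Patte de Loup, and over CAD4 alone it was 4.92, 5.29 and 8.16. AF42 (1.03) and Gala (0.96) also changed places over CAD4 alone. The gap between the phenotypes was at least 3.41 in all 9 forms of the ratio.

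The rule by which the genes were chosen did not use the order of varieties within a phenotype. By total reads, all 7 coupling and copper genes were highest in Patte de Loup among the russeted varieties. For the other two russeted varieties the members split into 2 sets. The 4 laccases were higher in St Edmund Pippin than in Reinette Parmentier, by 1.66-fold (1.29 to 2.13, exact 95% interval of the counts) and 1.81-fold (1.59 to 2.06) in LAC14 MDP0000148967 and MDP0000211955. The LAC15 genes MDP0000202801 and MDP0000655646 differed by 1.54-fold (1.11 to 2.13) and 2.46-fold (2.04 to 2.98). The peroxidase and the cupredoxins were lower in St Edmund Pippin than in Reinette Parmentier, at 0.708-fold (0.555 to 0.897) for the peroxidase. MDP0000175065 stood at 0.616-fold (0.498 to 0.758) and MDP0000185485 at 0.434-fold (0.362 to 0.518). None of the 7 intervals holds 1. They compare 2 libraries and not 2 varieties, since neither variety has a replicate.

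By unique reads the split between St Edmund Pippin and Reinette Parmentier was the same in direction, and the laccase ratios were 1.64 to 3.51. The place of Patte de Loup was less sure. Its ratio to St Edmund Pippin in LAC14 MDP0000211955 was 1.26 (1.13 to 1.40) by total reads and 0.757 (0.646 to 0.887) by unique reads, so the order of these varieties turns with the reads counted. In LAC15 MDP0000655646 the unique ratio was 1.07 (0.863 to 1.32), which does not separate them at this depth.

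**Figure D4:**
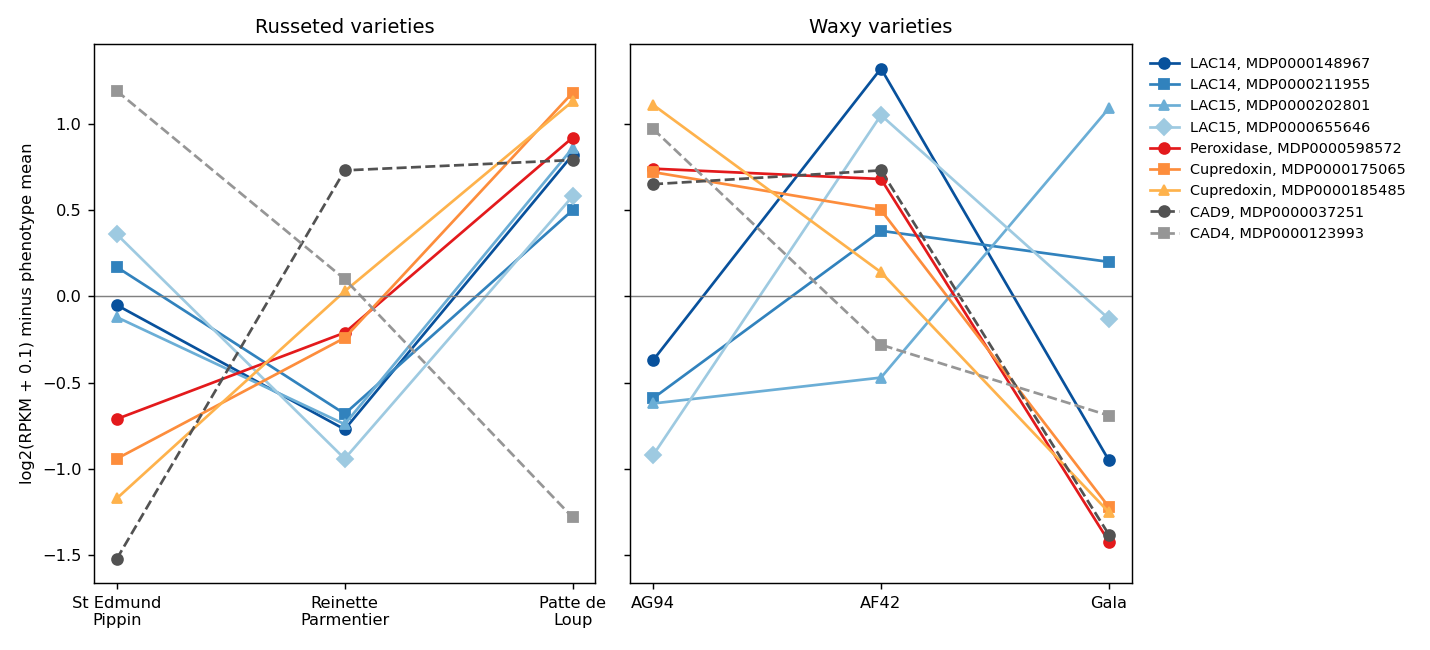
Each gene's log2(RPKM + 0.1) minus its mean over the 3 varieties of the phenotype, russeted at left and waxy at right. Lines join the values of 1 gene and the varieties have no order. Among russeted varieties the 4 laccases (blue) are lowest in Reinette Parmentier, while the peroxidase and cupredoxins (red and orange) are lowest in St Edmund Pippin.

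The waxy varieties did not split the genes in the same clear way. The peroxidase and both cupredoxins had their lowest level in Gala, and their AG94 levels were 5.63-fold (1.75 to 28.9), 4.23-fold (1.49 to 16.5, MDP0000175065) and 5.35-fold (2.58 to 12.8, MDP0000185485) those of Gala. LAC14 MDP0000148967 was lowest in Gala too, at 0.159-fold (0.0303 to 0.531) its AF42 level. LAC14 MDP0000211955 was lower in AG94 than in Gala, at 0.572-fold (0.400 to 0.819), and so was LAC15 MDP0000202801, at 0.282-fold (0.118 to 0.631). In LAC14 MDP0000148967 and LAC15 MDP0000655646 the interval of this ratio held 1. LAC15 MDP0000202801 was the only laccase with its highest waxy level in Gala, and the other 3 were highest in AF42. Waxy counts were low, with 3 to 76 reads for the peroxidase and cupredoxins and 3 to 82 for the laccases.

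The sum of the cork markers had, within each phenotype, the variety order of the peroxidase and the cupredoxins. The peroxidase did not separate AG94 from AF42, with a ratio of 1.04 (0.563 to 1.99). Neither did cupredoxin MDP0000175065, at 1.17 (0.62 to 2.3), while MDP0000185485 did, at 1.98 (1.24 to 3.28). The 8 markers summed to 115 RPKM in St Edmund Pippin, 372 in Reinette Parmentier and 578 in Patte de Loup, against 64.9 in AG94, 24.1 in AF42 and 17.5 in Gala. In 1 of the 8, the acyltransferase gene MDP0000312405, St Edmund Pippin at 25.7 RPKM stood below AG94 at 27.6. Phloem markers (4 genes, 2 of them higher past the threshold) summed to 50.3, 70.0 and 102 RPKM in these russeted varieties, against 15.0, 30.5 and 20 RPKM in AG94, AF42 and Gala. Cuticle markers summed to 211, 367 and 93.8 RPKM in the russeted varieties and to 2480, 2120 and 1380 RPKM in the waxy ones. Of 5 green flesh markers 0 passed the test in the main edgeR fit. In that fit 3 had an unadjusted p under 0.05, ELIP1 (MDP0000542944) and PSB29 (MDP0000171639) lower and a PsbP family gene, MDP0000277451, higher. DESeq2 called 2 and limma 1 of the 5. In edgeR, TMM factors and DESeq2 size factors each called 1, PSB29. The replicate block and leaving out Reinette Parmentier each called 1, ELIP1 MDP0000542944. Adjustment over the listed genes called 3. The peel had been freed of flesh with a scalpel. The markers summed to 479 to 3820 RPKM in russeted and 3700 to 7720 RPKM in waxy varieties. Most of each sum was ELIP1 MDP0000840536, with 366 to 3600 RPKM in russeted and 3350 to 7180 RPKM in waxy varieties. The ELIP1 and PSB29 genes had negative log2 fold changes, and both PsbP family genes positive ones (1.27 and 1.54). The sum thus follows 1 gene and is no measure of flesh. The part of these cell types in the levels of the members was not tested.

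The genes with the nearest profiles over the 6 varieties were looked up by the root mean square difference of log2(RPKM + 0.1), each gene centred on its own mean. It is a description over 6 libraries in a table chosen for 1 contrast. Cupredoxin MDP0000185485 was nearest to GPAT5 (MDP0000150502), an acyltransferase of suberin synthesis, at 0.27, and to a terpenoid cyclase gene, MDP0000205224, at 0.29. Cupredoxin MDP0000175065 was nearest to the other cupredoxin, at 0.32, and to the peroxidase, at 0.33. The peroxidase was in turn nearest to that cupredoxin and then, at 0.36, to MDP0000733336 of the UPF0497 family, which includes the Casparian strip membrane proteins of Arabidopsis. That gene was also the second nearest to LAC14 MDP0000148967 (0.45), after a lectin protein kinase gene, MDP0000300498 (0.43). It had 143 RPKM in St Edmund Pippin, 99.7 in Reinette Parmentier and 245 in Patte de Loup, against 17.9, 22.8 and 5.42 RPKM in AG94, AF42 and Gala.

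LAC14 MDP0000211955 and LAC15 MDP0000655646 were each other's nearest gene, at 0.37. LAC15 MDP0000202801 was nearest to a vacuolar proton pyrophosphatase gene, AVP1 (MDP0000797360), at 0.34, and to the fatty alcohol oxidase gene FAO3 (MDP0000208936), at 0.38. A zinc finger gene, MDP0000441454, was the second nearest to LAC14 MDP0000211955 (0.37), and a disease resistance gene, MDP0000463259, to LAC15 MDP0000655646 (0.42). Over all 6 varieties the laccases did not form a set apart from the peroxidase. LAC14 MDP0000211955 and LAC15 MDP0000655646 stood 1.08 and 1.10 from it, against 0.37 from each other. LAC14 MDP0000148967 was nearest, among the members, to LAC15 MDP0000655646 (0.65). It stood 0.66 from the peroxidase and 0.76 from cupredoxin MDP0000175065, nearer than to the other laccases, MDP0000211955 (0.84) and MDP0000202801 (1.22).

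CAD9 was nearest to MYB94 (MDP0000149535), which in Arabidopsis switches on genes of cuticular wax, at 0.41, and to a gene of the Rossmann-fold family, MDP0000119035, at 0.48. CAD4 was nearest to CYP707A3 (MDP0000297584), an abscisic acid hydroxylase, at 0.48, and to a leucine-rich repeat kinase gene, MDP0000720974, at 0.51. The CAD genes were 1.52 from each other, further than any pair among the other 7 members, whose distances ran up to 1.43.

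The rest of the pathway was read from lists of other genes, taken from the edgeR fit over all 1246 genes. Of 29 tested genes in the pathway lists, 11 were higher (37.9%) and 2 lower (6.90%), against 19.2% and 9.31% of all tested genes. Their median log2 fold change was 1.82, against 1.19 for all tested genes. The authors had picked every gene of the table on these libraries, so these counts are no independent evidence. With TMM factors, which lower the median log2 fold change of all tested genes to 0.196, 4 were higher, RBOHD and the 3 NAC075 genes, and 3 lower, DRL1 having joined the other two. With unique reads 7 were higher, since OMT1, TPX1, GLP10, HMA5 and NAC073 lost their call (adjusted p 0.0535 to 0.0779 in edgeR) and C4H MDP0000602841 gained one. DESeq2 called 19 higher and 3 lower. Without Reinette Parmentier 6 were higher, and without St Edmund Pippin or Patte de Loup 0 were lower.

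Upstream of CAD, 1 of 5 phenylpropanoid genes passed the test. The caffeic acid O-methyltransferase match OMT1 (MDP0000274409), which methylates lignin precursors, rose to 13.8 ± 8.08 RPKM in russeted exocarp, against 2.81 ± 1.02 RPKM in waxy exocarp (SD, n = 3 each; log2 fold change 2.30 ± 0.62, adjusted p = 0.0395, edgeR). In edgeR its adjusted p was 0.142 without Patte de Loup, 0.149 without Reinette Parmentier, 0.0829 without AG94 and 0.117 without AF42. CCR1 (MDP0000322755), the reductase just before CAD, was far more abundant than either CAD gene, at 303 ± 178 RPKM in russeted exocarp and 781 ± 296 RPKM in waxy exocarp. Its log2 fold change was -1.36 ± 0.69 (adjusted p = 0.385, edgeR), and the phenotypes overlapped between Reinette Parmentier (471) and AF42 (469). The C4H genes, of the hydroxylase that follows phenylalanine ammonia-lyase, had log2 fold changes of 1.86 ± 0.63 (MDP0000602841) and 1.00 ± 0.57 (MDP0000245663), and a methyltransferase gene, MDP0000310987, of 1.15 ± 0.52. None of these 3 passed, and with TMM factors C4H MDP0000245663 stood at -0.06. C4H MDP0000602841 had 43.5% unique reads, and on those it was called at 3.07 (edgeR adjusted p = 0.022), while DESeq2 on all reads called it at 1.86 (adjusted p = 0.0146).

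Of 2 genes of phenylalanine supply, the dehydroquinate dehydratase and shikimate dehydrogenase gene MDP0000189326 rose to 10.5 ± 0.272 RPKM in russeted exocarp, against 1.37 ± 1.16 RPKM in waxy exocarp (SD, n = 3 each; log2 fold change 2.89 ± 0.66, adjusted p = 0.0176, edgeR). The 3 russeted varieties were almost level, at 10.7, 10.2 and 10.6 RPKM. In edgeR its adjusted p was 0.0561 without St Edmund Pippin and 0.0568 without Reinette Parmentier. Arogenate dehydratase ADT1 (MDP0000319111) did not pass (log2 fold change 0.90 ± 0.45, edgeR adjusted p = 0.36, and -0.11 with TMM factors).

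Outside the 9 members the table held few other laccases, cupredoxins and peroxidases. The other LAC14 model, MDP0000302838, had 1.31, 5.25 and 2.91 RPKM in St Edmund Pippin, Reinette Parmentier and Patte de Loup, against 0.44, 0.53 and 0.20 RPKM in AG94, AF42 and Gala. It rests on 8, 54 and 27 reads in russeted and 4, 3 and 1 in waxy varieties, did not pass the filter on low counts, and had 93.8% unique reads. Without that filter edgeR called it higher, as did DESeq2 and limma. Unlike the 4 laccase members it was highest in Reinette Parmentier. Of 2 other cupredoxins, the early nodulin-like gene ENODL17 (MDP0000923711) rose by 3.33 ± 0.73 on the log2 scale (adjusted p = 0.0145, edgeR; 0.0539 without Reinette Parmentier). ENODL14 (MDP0000569069), with 10.4% unique reads, did not pass (log2 fold change 1.96 ± 0.65). It was called at 3.15 without AF42 (adjusted p = 0.0128, edgeR), with the replicate block (0.0404) and by DESeq2 (0.014). Of 2 other peroxidases, the thioredoxin-dependent TPX1 (MDP0000244884), a peroxiredoxin that acts inside cells, rose by 2.07 ± 0.57 (adjusted p = 0.0435, edgeR). Its edgeR adjusted p was 0.185 without Patte de Loup, 0.13 without Reinette Parmentier, 0.155 without AG94 and 0.0977 without Gala. A peroxidase superfamily gene, MDP0000282167, just missed the threshold (log2 fold change 1.82 ± 0.54, edgeR adjusted p = 0.0605) and was called by DESeq2 (0.00603).

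Of 4 genes that make hydrogen peroxide or its precursor, 2 rose. RBOHD (MDP0000262620), a plasma membrane oxidase that makes superoxide, had 27.8 RPKM in St Edmund Pippin, 35.3 in Reinette Parmentier and 45.1 in Patte de Loup, against 4.49 in AG94, 3.45 in AF42 and 2.59 in Gala. Its russeted and waxy values lay far apart, and its log2 fold change of 3.36 ± 0.53 (SE; adjusted p = 0.00346, edgeR) was called under all 14 alternatives. The germin-like gene GLP10 (MDP0000530457) rose by 2.45 ± 0.59 (adjusted p = 0.021, edgeR), with 18.2% unique reads, and lost its call without St Edmund Pippin (0.107), AG94 (0.0759) or AF42 (0.0698). The copper amine oxidase genes MDP0000863012 and MDP0000320213 did not pass, at 1.35 ± 0.49 and 2.01 ± 0.68 on the log2 scale, though DESeq2 called both and edgeR the second without AG94 (3.01, adjusted p = 0.0249).

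Copper handling genes rose in 1 of 9 tested cases and fell in 1, and the list includes both amine oxidases. HMA5 (MDP0000176129), a copper-exporting ATPase of Arabidopsis roots, had means of 9.09 ± 5.24 RPKM in russeted exocarp and 1.83 ± 1.24 RPKM in waxy exocarp (SD, n = 3 each; log2 fold change 2.32 ± 0.60, adjusted p = 0.0316, edgeR). In edgeR its adjusted p was 0.156 without St Edmund Pippin, 0.0979 without AG94 and 0.0896 without Gala. The gene that fell, MDP0000249096 (log2 fold change -2.13 ± 0.50, adjusted p = 0.0186, edgeR), is described as an aldehyde oxidoreductase that binds copper and not as a transporter. Its call was lost without any 1 russeted variety (edgeR adjusted p 0.0635 to 0.0988). HMA7 (MDP0000256469), matched to a copper pump of the secretory pathway in Arabidopsis, did not pass, at 1.74 ± 0.54 on the log2 scale, and was called by DESeq2.

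**Figure D5:**
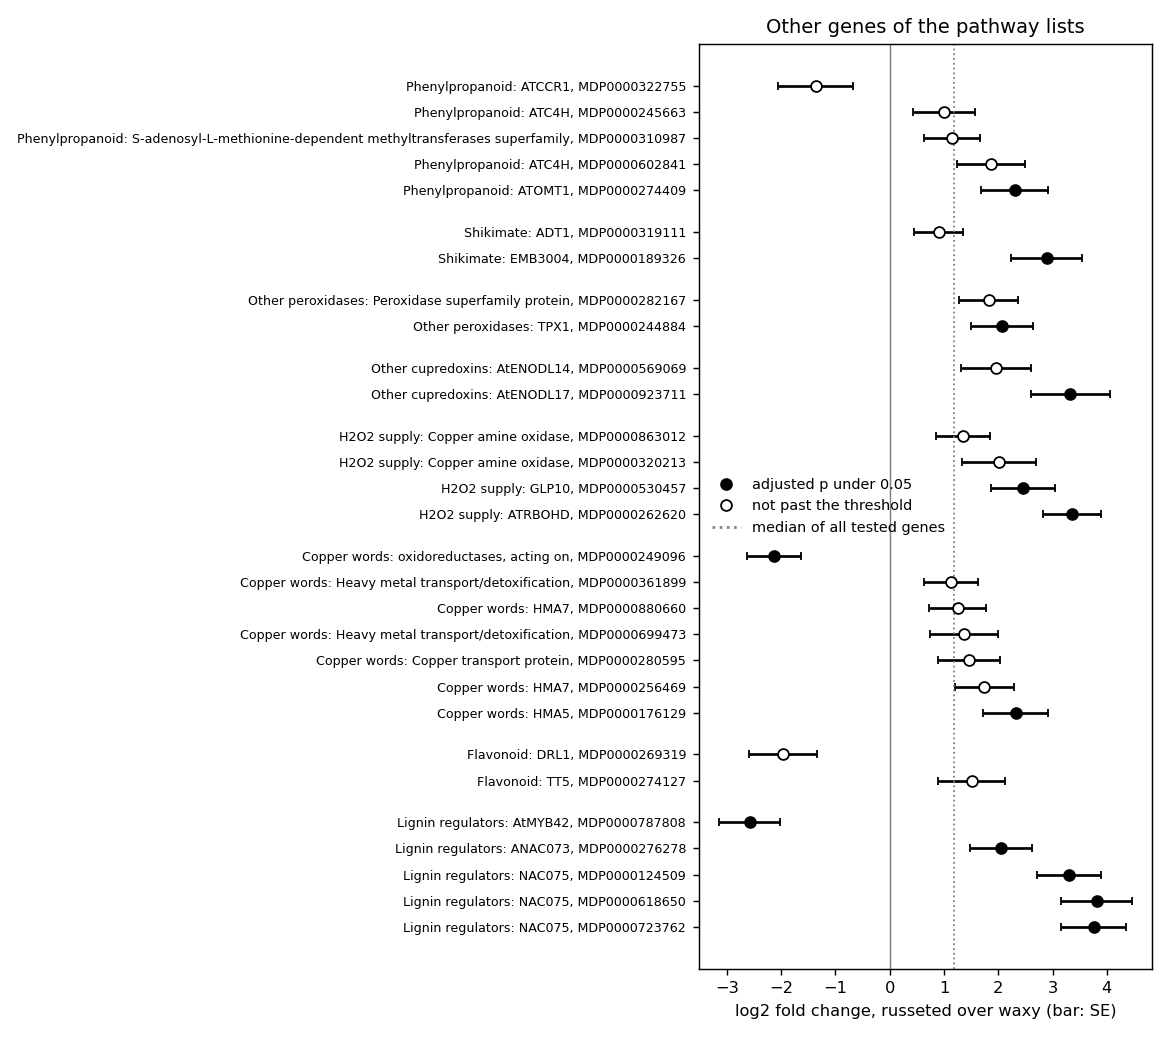
Log2 fold change, russeted over waxy, of the 29 other pathway genes tested, with SE bars. Filled points passed an adjusted p of 0.05, and the dotted line is the median of all tested genes, 1.19. The filled points are 11 to the right and 2 to the left of 0.

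The flavonoid branch shares its precursors with monolignols. Genes listed by flavonoid words in their description passed in 0 of 2 cases by edgeR. The chalcone isomerase match TT5 (MDP0000274127) had a log2 fold change of 1.51 ± 0.62 and the dihydroflavonol reductase-like DRL1 (MDP0000269319) of -1.97 ± 0.63. DRL1 was listed by its reductase-like name alone, and whether it acts in the flavonoid branch was not tested. Both had an unadjusted p under 0.05, 0.0269 and 0.00659, and limma on log2 RPKM called 0 and DESeq2 1 of them. In edgeR, DRL1 was called at -2.96 with TMM factors (adjusted p = 0.0198) and at -2.94 without Reinette Parmentier (0.0362). TT5 was called in edgeR at 2.67 without AG94 (adjusted p = 0.0204).

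Regulators of lignin and secondary walls were called in 5 of 5 cases, 4 higher and 1 lower. That is 80% and 20%, against 19.2% and 9.31% of all tested genes. With TMM factors 3 were higher and 1 lower. The list was chosen with earlier results known, and 3 of its genes match the same Arabidopsis gene, NAC075. MYB42 (MDP0000787808), an activator of phenylalanine and lignin genes in Arabidopsis, fell to 18.0 ± 11.2 RPKM in russeted exocarp, against 108 ± 27.3 RPKM in waxy exocarp (SD, n = 3 each; adjusted p = 0.0132, edgeR; 0.0606 without St Edmund Pippin and 0.0582 without Patte de Loup). The 3 NAC075 genes and NAC073, NAC factors of secondary wall formation in Arabidopsis, rose. NAC075 MDP0000723762 had 8.33 RPKM in St Edmund Pippin, 3.51 in Reinette Parmentier and 5.44 in Patte de Loup, against 0.53, 0.38 and 0.31 RPKM in AG94, AF42 and Gala. MDP0000124509 and MDP0000618650, the other NAC075 genes, rose by 3.30 ± 0.59 and 3.81 ± 0.65 on the log2 scale (adjusted p = 0.00592 and 0.00444, edgeR). NAC073 (MDP0000276278) rose by 2.05 ± 0.57 on the log2 scale (adjusted p = 0.0476, edgeR) and lost its call without any 1 variety but AF42 (0.0695 to 0.16). The lists of dirigent, Casparian strip and xylem genes had 0 members in the table; the UPF0497 gene above carries no Casparian strip name there.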

How the data were processed

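One table of 1261 gene models was used, with the 9 members found by identifier. Per the file headers, the authors gave total and unique gene read counts and RPKM values for each of 6 libraries, from CLC Genomics Workbench. The deposited table also holds the authors' fold between phenotypes as a signed score, its log2 value, and the p-value and false discovery rate of Baggerley's test. No label or header used here names mapping settings or a build. Library sizes were recovered from counts, coding length and RPKM. Counts were fitted with edgeR 4.0.16 (R 4.3.3) quasi-likelihood on those sizes after a low-count filter that kept 1246 genes, with Benjamini-Hochberg adjustment over 6449 genes, the number recovered from the authors' rates, and a threshold of 0.05. Alternatives were TMM and DESeq2 size factors, DESeq2 1.42.0, limma 3.58.1 on log2(RPKM + 0.1), unique reads, no filter, adjustment over the listed genes, a replicate block and leaving out each variety. The fit was tested on simulated counts.

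Intervals on counts and shares (95%) cover counting error only. Named genes were all members, all genes of each list of 6 or fewer (for a longer list the 2 rising and 2 falling with the smallest p), marker lists as sums, and the 2 described genes nearest each member. Marker genes named singly, and the variety values of MDP0000733336, were chosen after their values were seen. The members and lists were chosen with earlier results of these data known. Replicates are different varieties, so p-values set the phenotype difference against the spread among varieties within each phenotype in these 6 libraries. Annotated roles come from the Arabidopsis matches in the table. Sequences and coordinates were not used here.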

Additional observations from a re-analysis of the deposited data

How the results depend on the processing

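The log2 coupling ratio differed by 5.84 between russeted and waxy means, by 5.75 to 6.77 under other numerators, denominators, log means or unique reads, and by 5.15 to 6.39 without 1 variety. No member changed direction under the alternatives run. Across all tested genes, 239 were called higher and 116 lower. TMM factors gave 44 and 296, DESeq2 size factors in edgeR 43 and 296, adjustment over the listed genes alone 597 and 290, and DESeq2 547 and 266. Leaving out 1 variety gave 134 to 194 higher and 67 to 105 lower. In the pathway lists, 11 higher and 2 lower in the report, TMM and DESeq2 size factors each gave 4 higher and 3 lower, unique reads 7 and 2, adjustment over the listed genes 20 and 3, and DESeq2 19 and 3. Leaving out 1 variety gave 6 to 11 higher and 0 to 2 lower. C4H MDP0000245663 turned to -0.06 with TMM and -0.08 with DESeq2 size factors, and ADT1 to -0.11 and -0.13. Both scalings assume that most listed genes do not differ and bring the median log2 fold change to 0.196 and 0.176. With the replicate block, 209 genes were higher and 110 lower, and 10 and 2 of the lists. Same-numbered varieties did not deviate together (r = -0.08, -0.01 and -0.08 across genes), so the numbers do not pair them. Waxy counts of 3 to 30 reads limit the folds of the peroxidase, LAC14 MDP0000148967 and cupredoxin MDP0000175065.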
